A study of Mus musculus with 8 samples.

Results

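Immediate early genes (IEGs) are the genes that neurons switch on directly after activity, and 38 of them, chosen by symbol for their known activity induction, were followed in the prefrontal cortex (PFC) of mice overexpressing Rnf146 or, as the control, eGFP. Of the 38 symbols, 36 had a row among the 15039 genes of the expression table. Atf3 and Maff were not analysed here. The rule used the symbols and no expression value, but the list was drawn up with earlier results of these data known. Counts over the list therefore carry no p. RNA sequencing covered 4 libraries per group, numbered 1 to 4. All mice were wild-type C57BL/6NCrljOri males, which the study injected bilaterally in the PFC at an age of 6 weeks with AAV2/1-hsyn-RNF146-eGFP or, as the control, AAV2/1-hsyn-eGFP. Both groups therefore carried an AAV and expressed eGFP, and the hsyn promoter restricts both transgenes largely to neurons. The PFC was dissected 4 weeks after the injection, under a short anesthesia that the labels give as 2.5% isoflurane, while the study's methods give a higher concentration. According to the study, the sequenced mice had been checked for Rnf146 overexpression and for a social deficit, and the interval between the last behavioral test and the dissection is not given in the sources used here. The labels do not tie each library to a separate mouse. The p-values therefore measure only the spread of the differences between same-numbered libraries.

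Synaptic input that fires a neuron lets calcium in and activates kinases such as CaMKs and ERK, which act on the transcription factors CREB, SRF and MEF2 already bound at the promoters of IEGs. Transcription starts within minutes and the mRNAs are short-lived, so that their level in tissue follows the activity, arousal and handling of the animal shortly before the tissue was frozen. Most early products are transcription factors (FOS, JUN, EGR, NR4A, NPAS4, KLF) that drive a later wave of effectors at synapses. Others are phosphatases and other inhibitors that switch the response off again. In the cortex, Fos, Arc and Egr1 are widely used to mark recently active neurons.

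Values were on a log2 scale, between 7.86 and 18.8 for all genes, and the authors had centred them within pairs, each made of the eGFP and the Rnf146 library of 1 number. As all 4 pairs of a gene have an identical sum, a gene carries only its mean and 4 pair differences, Rnf146 minus eGFP. In such values the groups do not overlap exactly when all 4 differences have the same sign. The scale compresses differences of weakly expressed genes. On a curve fitted here, 1 log2 step in the normalized count shifts the value by only 0.328 for a gene near 100 counts, by 0.739 near 1000 and by 0.961 near 10000. Sequencing depth cannot be read from these values and is unknown. Rnf146 itself was higher in all 4 pairs, by 2.64 ± 0.13 (SD, n = 4 pairs; adjusted p = 3.18e-07 from limma). A gene was called where limma, fitted with the pairs as a block, gave an adjusted p of at most 0.1. At this threshold, 188 of the 15039 genes (1.25%) were called, 123 higher and 65 lower in Rnf146-overexpressing mice.

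The promoters of Fos, Fosb and Junb, the IEGs that were called, and of Npas4 and Nr4a1, the IEGs with the next smallest adjusted p-values, are shown as the 250 bases before the annotated start, from RefSeq (GRCm38.p6), 5′ to 3′ along the gene. The windows lie at chr12:85473640-85473889 (plus strand), chr7:19310046-19310295 (minus strand), chr8:84978749-84978998 (minus strand), chr19:4989972-4990221 (minus strand) and chr15:101266596-101266845 (plus strand). Capitals mark TGACG, the core of the CREB-binding cAMP response element (CRE), printed as CGTCA where it lies on the opposite strand, and in Fosb and Nr4a1 also a GC-rich EGR motif.
Fos: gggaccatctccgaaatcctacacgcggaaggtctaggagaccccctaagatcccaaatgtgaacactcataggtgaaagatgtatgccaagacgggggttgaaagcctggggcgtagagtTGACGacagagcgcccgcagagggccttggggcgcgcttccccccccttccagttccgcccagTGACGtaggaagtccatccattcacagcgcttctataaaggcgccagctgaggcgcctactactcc
Fosb: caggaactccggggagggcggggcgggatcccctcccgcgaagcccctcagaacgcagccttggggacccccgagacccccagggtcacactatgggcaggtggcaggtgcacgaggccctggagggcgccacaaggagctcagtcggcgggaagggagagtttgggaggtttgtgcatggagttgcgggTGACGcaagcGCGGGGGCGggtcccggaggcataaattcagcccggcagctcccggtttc
Junb: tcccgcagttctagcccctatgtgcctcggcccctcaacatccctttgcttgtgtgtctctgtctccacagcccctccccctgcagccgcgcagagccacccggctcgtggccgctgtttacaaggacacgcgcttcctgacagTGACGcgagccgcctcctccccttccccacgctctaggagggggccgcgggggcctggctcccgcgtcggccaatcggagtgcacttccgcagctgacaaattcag
Npas4: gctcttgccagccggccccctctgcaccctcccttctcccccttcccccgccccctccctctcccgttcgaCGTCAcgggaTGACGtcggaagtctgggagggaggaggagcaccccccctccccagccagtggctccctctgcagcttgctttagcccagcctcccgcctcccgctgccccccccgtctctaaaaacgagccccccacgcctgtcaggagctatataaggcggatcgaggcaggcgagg
Nr4a1: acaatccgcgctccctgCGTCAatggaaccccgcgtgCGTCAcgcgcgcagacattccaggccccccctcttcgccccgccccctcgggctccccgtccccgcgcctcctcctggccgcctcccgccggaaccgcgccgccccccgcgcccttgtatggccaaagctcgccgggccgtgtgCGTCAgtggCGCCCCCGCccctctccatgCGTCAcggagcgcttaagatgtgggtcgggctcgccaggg

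TGACG was found in all 5 windows. In Fos, the core nearest to the start began 66 bases before it, and another began at 129 bases. Fosb had its core at 60 bases, followed by the EGR motif at 50 bases. Junb had a single core at 106 bases, Npas4 had cores at 179 and 169 bases, and Nr4a1 had 4 cores between 233 and 40 bases before the start. Promoters were found for 25 of the 36 IEGs. On either strand of the 250 bases, TGACG was present in 16 of the 25 (64%), against 29.8% of the 11133 genes of the expression table with a promoter and 17.8% of all 32851 windows. The complete palindromic CRE, TGACGTCA, which contains the core, was present in 4 of the 25 (16%), in Dusp1, Btg2, Pcsk1 and Scg2, against 3.05% of genes and 1.55% of windows. The EGR motif, GCGGGGGCG or GCGTGGGCG, was present in 5 of the 25 (20%), against 6.78% of genes and 3.06% of windows. The AP-1 motif TGANTCA was present in 1 IEG promoter, that of Csrnp1, against 5.43% of genes and 6.75% of windows. The CArG box, to which SRF binds, was present in 2, those of Egr2 and Dusp5, against 1.37% of genes and 1.47% of windows. These matches describe the letters in the windows and no binding was measured.

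In Rnf146-overexpressing mice, 33 of the 36 IEGs had a mean difference below 0, where 49.4% of all genes did. Fos, Fosb and Junb were called lower, which is 3 of 36 (8.33%) against 0.432% of all genes. No IEG was called higher, against 0.818% of all genes, and at an unadjusted p under 0.05 from limma 25 of 36 were lower (5.98% of all genes) and 0 were higher (6.45% of all genes). The groups did not overlap, with the Rnf146 value lower in all 4 pairs, in 18 of 36 IEGs, against 10.2% of all genes. No IEG was higher in all 4 pairs, against 10.4% of all genes. The median difference of the 36 IEGs was -0.21 with an SD of 0.12 between the 4 pair medians, and the median over all genes was 0.0009. Of all genes, 1.6% had a mean difference below the IEG median.

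**Figure D1:**
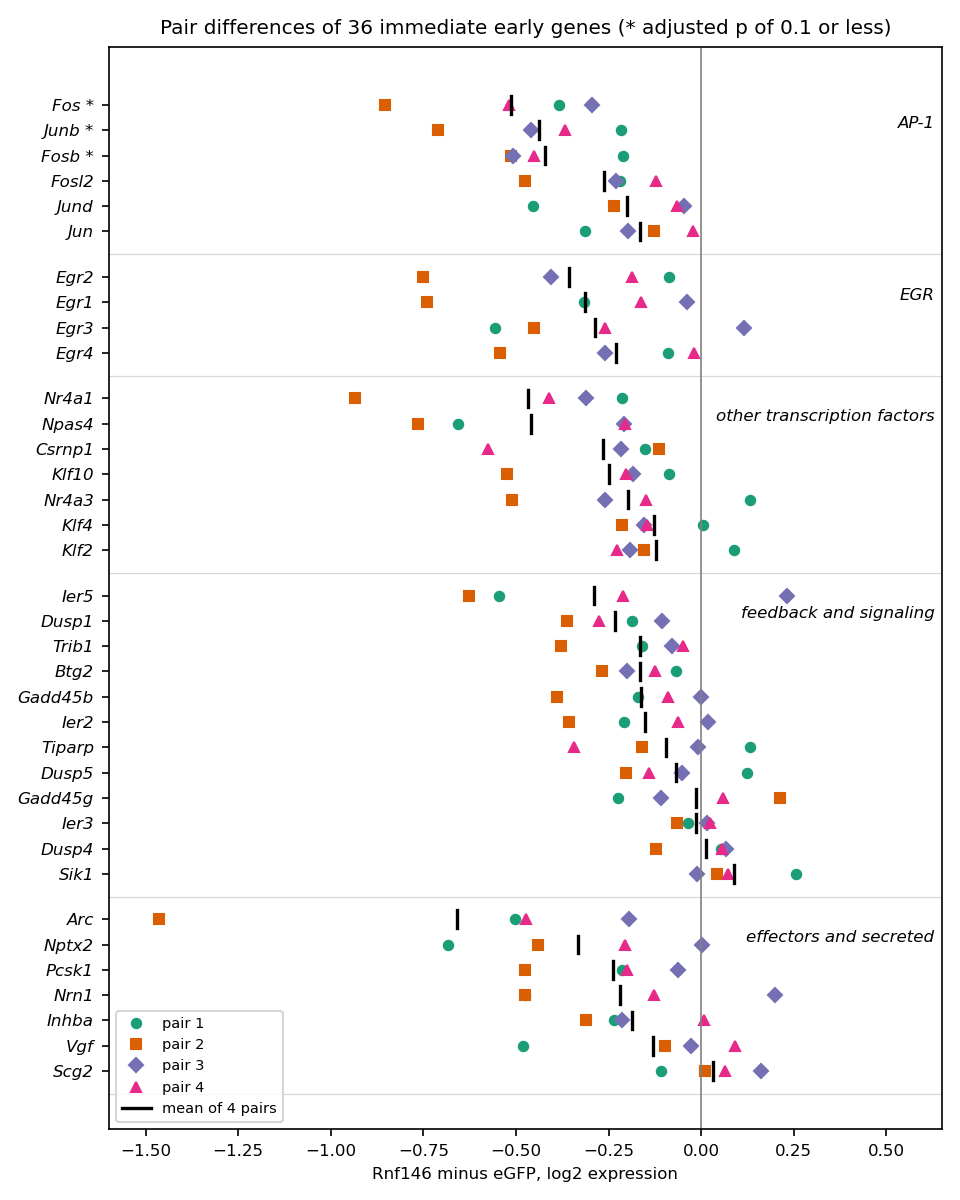
Differences between the Rnf146 and the eGFP library of each pair (x axis, log2 expression) for the 36 IEGs (y axis), grouped by role; symbols are the 4 pairs, black bars their mean, and asterisks mark genes that limma called (adjusted p of at most 0.1). The means of 33 of the 36 genes lie left of 0, and pair 2 is the lowest pair in 24 of the 36.

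The calls of Fos, Fosb and Junb changed when a pair was left out. Of the 3, 0 were called without pair 2 or without pair 4, all 3 without pair 1, and Fos and Fosb without pair 3. Over all 15039 genes, the number called lower was 119, 3, 55 and 0 without pairs 1 to 4 in turn, against 65 with all pairs. Without the replicate block, which treats the centred values as 8 independent libraries, 24 of 36 IEGs (66.7%) were called lower, against 10.4% of all genes, and 0 were called higher, against 11.0% of all genes. At an adjusted p of at most 0.05, 1 IEG, Fosb, was called, against 0.532% of all genes.

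The FOS and JUN families form the dimeric transcription factor AP-1. All 6 measured genes of this group had a negative difference in every pair, against 10.2% of all genes. Their mean differences ran from -0.51 to -0.17, with a median of -0.34. Fos (chromosome 12, 85520658 to 85524047 of GRCm39, plus strand) encodes the classical activity marker FOS. Its values were 9.81, 10.04, 9.76 and 9.88 in eGFP libraries 1 to 4 and 9.43, 9.19, 9.47 and 9.36 in the Rnf146 libraries of the same numbers. All 4 Rnf146 libraries were below all 4 eGFP libraries, and the gap was widest in pair 2. Fos fell by 0.51 ± 0.25 (SD, n = 4 pairs; adjusted p = 0.0507 from limma) on the log2 scale. Transformed back to normalized counts on the fitted curve, where its mean was about 425, the decrease corresponded to 45.9%.

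Fosb (chromosome 7, 19036621 to 19043976, minus strand) encodes a FOS paralog whose truncated isoform ΔFOSB builds up with repeated stimulation. Its values were 9.81, 9.96, 9.96 and 9.93 in eGFP libraries 1 to 4 and 9.60, 9.45, 9.45 and 9.48 in the Rnf146 libraries. Pairs 2, 3 and 4 lay close together, and pair 1 had the smallest gap. Fosb had the smallest adjusted p of the 36 IEGs (0.0286 from limma), with a difference of -0.42 ± 0.14 (SD, n = 4 pairs) and a decrease of 38.5% on the count scale. Isoforms were not separated in the gene-level values.

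Junb (chromosome 8, 85701113 to 85705359, minus strand) encodes a JUN family partner of FOS. Its values were 10.56, 10.81, 10.68 and 10.64 in eGFP libraries 1 to 4 and 10.34, 10.10, 10.22 and 10.27 in the Rnf146 libraries. The groups did not overlap, and pair 2 again had the widest gap. Junb fell by 0.44 ± 0.21 (SD, n = 4 pairs; adjusted p = 0.0556 from limma), a decrease of 33.7% on the count scale.

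**Figure D2:**
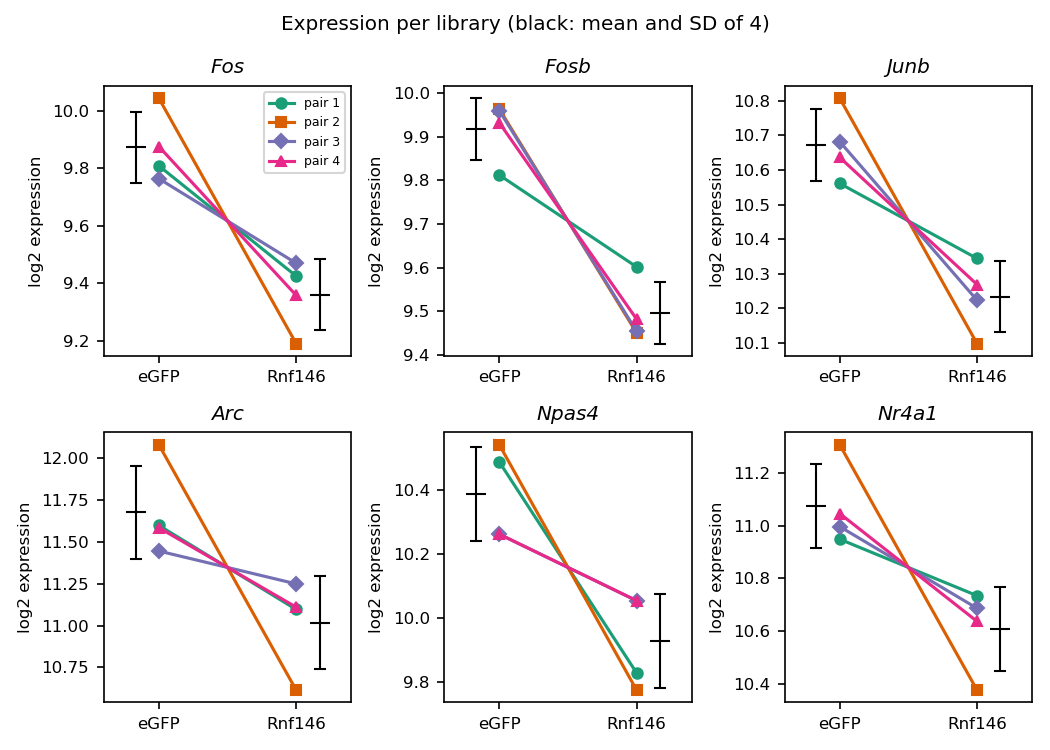
Expression of 6 IEGs (y axis, log2) in each eGFP and Rnf146 library (x axis); lines join the libraries of a pair, and black marks give the mean and SD of 4 libraries. In all 6 genes every Rnf146 library lies below every eGFP library, and the lines cross at 1 point because the values were centred within pairs. The centring also gives both groups of a gene the same SD, which is smaller than that of the pair differences and is no separate spread within a group.

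The other AP-1 genes had smaller differences that did not pass the threshold. Fosl2, which encodes the FOS relative FRA2, differed by -0.22, -0.48, -0.23 and -0.12 in the 4 pairs (adjusted p = 0.138 from limma). Jun, which encodes the founding JUN protein, differed by -0.31, -0.13, -0.20 and -0.02 (adjusted p = 0.28 from limma). Jund, the JUN gene least dependent on stimulation, differed by -0.45, -0.24, -0.05 and -0.07 (adjusted p = 0.295 from limma). In contrast to Fos, Fosb and Junb, the widest gap of Jun and Jund was in pair 1.

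The EGR genes encode zinc finger transcription factors that bind GC-rich promoters and act in synaptic plasticity. None of the 4 genes was called, although all 4 were lower at an unadjusted p under 0.05 from limma (5.98% of all genes). Their mean differences ran from -0.36 to -0.23, with a median of -0.30. Egr2 had the largest mean difference. Its values were 9.07, 9.40, 9.23 and 9.12 in eGFP libraries 1 to 4 and 8.98, 8.65, 8.82 and 8.93 in the Rnf146 libraries. Every Rnf146 library was lower, yet the difference of -0.09 in pair 1 and of -0.75 in pair 2 spread widely around the mean of -0.36 ± 0.29 (SD, n = 4 pairs; adjusted p = 0.192 from limma). At a mean of about 189 normalized counts, this corresponded to -0.84 after transformation back to log2 counts. Egr1, also known as Zif268, differed by -0.32, -0.74, -0.04 and -0.16 (adjusted p = 0.25 from limma). Egr4 differed by -0.09, -0.54, -0.26 and -0.02 (adjusted p = 0.309 from limma). Egr3 was the only EGR gene with a pair above 0, at -0.56, -0.45, 0.12 and -0.26 (adjusted p = 0.28 from limma).

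Of the 7 other transcription factor genes, 4 were lower in all 4 pairs (10.2% of all genes) and 0 were called. At an unadjusted p under 0.05 from limma, 5 were lower (5.98% of all genes). Nr4a1 encodes the orphan nuclear receptor NUR77. Its values were 10.95, 11.31, 11.00 and 11.05 in eGFP libraries 1 to 4 and 10.73, 10.37, 10.69 and 10.64 in the Rnf146 libraries. The groups did not overlap, with a difference of -0.93 in pair 2, where the other 3 pairs had -0.41 to -0.21. The mean was -0.47 ± 0.32 (SD, n = 4 pairs; adjusted p = 0.117 from limma). Without pairs 1 to 4 in turn, the adjusted p was 0.0631, 0.174, 0.16 and 0.365 (limma). Npas4 encodes a factor induced in neurons by calcium entry and regulates inhibitory synapses. Its differences fell into a larger size in pairs 1 and 2, at -0.66 and -0.77, and a smaller one in pairs 3 and 4, at -0.21 in both. Its adjusted p was 0.104 from limma, just outside the threshold, and 0.098 when libraries were centred on the same median.

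Csrnp1, an AXIN1-induced nuclear protein gene, differed by -0.15, -0.12, -0.22 and -0.57 in the 4 pairs, the largest in pair 4 (adjusted p = 0.21 from limma). Klf10, which encodes a TGF-β-inducible zinc finger factor, differed by -0.09, -0.52, -0.18 and -0.20 (adjusted p = 0.208 from limma). Nr4a3, Klf4 and Klf2 had pair 1 at 0.13, 0.00 and 0.09 and the other 3 pairs below 0. Klf2 and Klf4 are also expressed by endothelial cells, and the mean differences of the 3 genes were between -0.20 and -0.12.

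On the compressed scale, feedback and signaling genes showed the smallest differences of the 5 role groups, with a median of -0.12 over 12 genes. The group held weakly expressed genes, whose differences this scale reduces, such as Ier2 and Ier3 at about 82.5 and 104 normalized counts. None of the 12 was called, and 6 were lower at an unadjusted p under 0.05 from limma (5.98% of all genes). Dusp1 encodes a phosphatase that inactivates MAP kinases. Its pair differences were -0.19, -0.36, -0.11 and -0.27, on average -0.23 ± 0.11 (SD, n = 4 pairs; adjusted p = 0.136 from limma). Btg2, an antiproliferative gene, differed by -0.07, -0.27, -0.20 and -0.12 (adjusted p = 0.241 from limma). Trib1, a pseudokinase gene, differed by -0.16, -0.38, -0.08 and -0.05 (adjusted p = 0.328 from limma). Dusp1, Btg2 and Trib1 were the only genes of this group with the same sign in all 4 pairs. Of all genes, 10.2% were lower in all 4 pairs.

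On the compressed scale, Ier5 had the largest mean difference of the feedback and signaling group and 1 pair of opposite sign. After transformation back to log2 counts, Ier2 (-0.51) and Dusp1 (-0.40) differed more than Ier5 (-0.38). The values of Ier5 were 10.90, 10.94, 10.51 and 10.73 in eGFP libraries 1 to 4 and 10.36, 10.31, 10.74 and 10.52 in the Rnf146 libraries. The groups overlapped, since the Rnf146 library was the higher one in pair 3. Its mean of -0.29 ± 0.39 (SD, n = 4 pairs) did not exceed the pair-to-pair spread. The adjusted p was 0.397 with all pairs, and 0.581, 0.763, 0.0895 and 0.594 without pairs 1 to 4 in turn (limma).

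Some IEGs, chosen here after their values were seen, had mean differences near 0. Ier3 differed by -0.02 (95% interval -0.11 to 0.08 from limma), and Dusp4, a nuclear MAP kinase phosphatase gene, by 0.01 (-0.10 to 0.13). Gadd45g differed by -0.02 (-0.18 to 0.15), while its paralog Gadd45b, which acts in DNA demethylation in neurons, differed by -0.16 (-0.31 to -0.01). Sik1, which encodes a kinase that restrains CREB coactivators, had the highest mean of the 36 IEGs, at 0.09 (-0.04 to 0.22). The remaining genes of the feedback and signaling group, Ier2, Dusp5 and Tiparp, had mean differences between -0.15 and -0.07. In log2 counts, these were -0.51, -0.17 and -0.18.

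Among the effectors, Arc encodes a capsid-like protein that removes AMPA receptors from synapses. Its values were 11.60, 12.08, 11.44 and 11.58 in eGFP libraries 1 to 4 and 11.10, 10.61, 11.25 and 11.11 in the Rnf146 libraries. All Rnf146 libraries were lower. On the compressed scale, Arc had the largest mean difference of the 36 IEGs, -0.66 ± 0.55 (SD, n = 4 pairs), and also the largest spread. It was not called (adjusted p = 0.167 from limma). After transformation back to log2 counts, Arc differed by -0.78, less than Fos (-0.89) and Egr2 (-0.84). In pair 2, Arc differed by -1.46 on the compressed scale, against -0.50, -0.20 and -0.47 in pairs 1, 3 and 4. Without pair 2, its mean difference was -0.39 (adjusted p = 0.145 from limma).

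The other 6 effectors are secreted or act at the cell surface. None of the 7 effectors was called, and 4 were lower at an unadjusted p under 0.05 from limma (5.98% of all genes). Nptx2, a pentraxin that clusters AMPA receptors, differed by -0.68, -0.44, 0.00 and -0.21 (adjusted p = 0.221 from limma). Pcsk1, a prohormone convertase gene, was lower in all 4 pairs, at -0.21, -0.47, -0.06 and -0.20 (adjusted p = 0.202 from limma). Inhba, which encodes an activin subunit, and Nrn1, or neuritin, had mean differences of -0.19 ± 0.14 and -0.22 ± 0.32 (SD, n = 4 pairs), with 1 pair above 0 in each. The granin genes Vgf and Scg2 had mean differences of -0.13 ± 0.25 and 0.03 ± 0.11 (SD, n = 4 pairs), neither above the pair-to-pair spread.

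The size of the difference varied from pair to pair. In pair 1, 29 of 36 IEGs were below 0, in pair 2 33, in pair 3 27 and in pair 4 29, where 49.9%, 49.3%, 48.9% and 50.8% of all genes were. The median difference of the IEGs was -0.21, -0.38, -0.11 and -0.15 in pairs 1 to 4. Pair 2 was the lowest pair for 24 of the 36 genes, pair 1 for 8, pair 4 for 3 and pair 3 for 1. The EGR group had a median of -0.64 in pair 2 against -0.20 to -0.15 in the others. Effector medians were -0.48 and -0.44 in pairs 1 and 2, and -0.03 and -0.13 in pairs 3 and 4.

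IEGs also spread more between pairs than most genes. The median SD of the 4 pair differences was 0.19 for the 36 IEGs and 0.10 for all genes, and 32 of the 36 had an SD above the median of all genes. Only 11.1% of all genes had an SD above the IEG median. Such a spread was not particular to the IEGs among the gene lists described below. The median SD was 0.19 for cortical excitatory markers and for heat shock genes, 0.45 for oligodendrocyte and 0.54 for striatal markers. In the other lists below it was lower than for the IEGs, at 0.11 to 0.17. In 20 of the 36 IEGs the mean difference was larger than its SD over pairs, as it was in 22.9% of all genes.

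**Figure D3:**
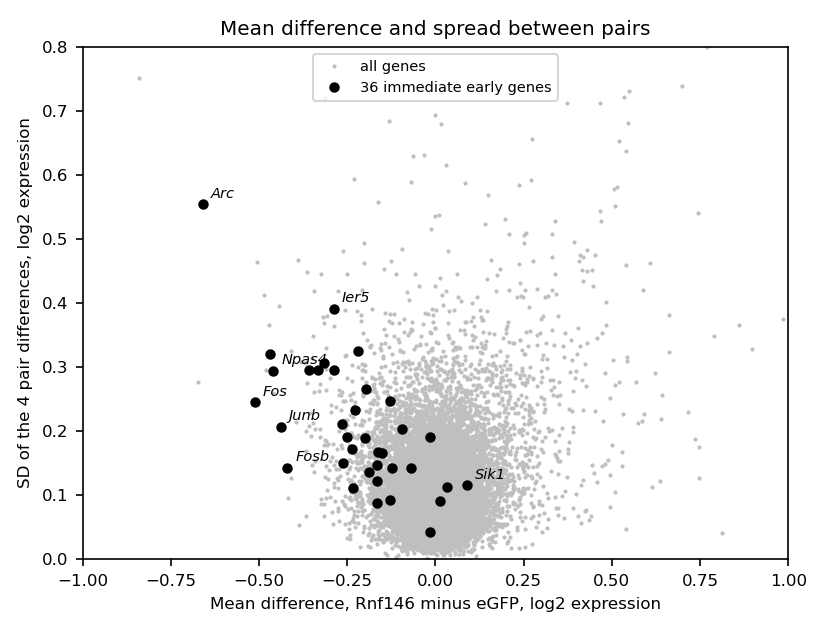
Mean difference (x axis) against the SD of the 4 pair differences (y axis), both in log2 expression, for all genes (grey, axes limited to the range shown) and the 36 IEGs (black). The IEGs lie mostly to the left of 0 and above the bulk of genes, with Arc at -0.66 and an SD of 0.55, and Fosb at -0.42 and an SD of 0.14.

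A further list held 32 other activity-regulated genes. Of the 30 with values, 28 had a mean difference below 0 (49.4% of all genes) and 10 were lower in all 4 pairs (10.2% of all genes). Of these 30 genes, 1 was called lower and 1 called higher, against 0.432% and 0.818% of all genes. Their median was -0.09, against -0.21 for the IEGs. On the count scale, these medians were -0.20 and -0.35. Bdnf, the neurotrophin gene that activity induces in excitatory neurons, differed by -0.23, -0.72, -0.09 and -0.27 (adjusted p = 0.203 from limma). Rasd1, which encodes a small GTPase that dexamethasone induces, rose by 0.42 ± 0.12 (SD, n = 4 pairs) and was higher in all 4 pairs (adjusted p = 0.0232 from limma). The gene called lower was Lingo1, a membrane protein gene named here after its value was seen, at -0.32 ± 0.09 (adjusted p = 0.0379 from limma).

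The signaling regulators upstream of IEGs, which are kinases, calcineurin subunits and the CREB, SRF and MEF2 factors with their coactivators, had a median of -0.06 over 32 genes. Of them, 20 had a mean difference below 0, against 49.4% of all genes. In all 4 pairs, 4 were lower and 3 higher, against 10.2% and 10.4% of all genes, and 1 was called lower, against 0.432%. It was Camkk1, a calcium-dependent kinase gene that acts on CaMKI and CaMKIV, which fell by 0.25 ± 0.08 (SD, n = 4 pairs; adjusted p = 0.0745 from limma). Elk1, an SRF partner that ERK phosphorylates, differed by -0.22, -0.26, 0.02 and -0.15 (adjusted p = 0.312 from limma).

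**Figure D4:**
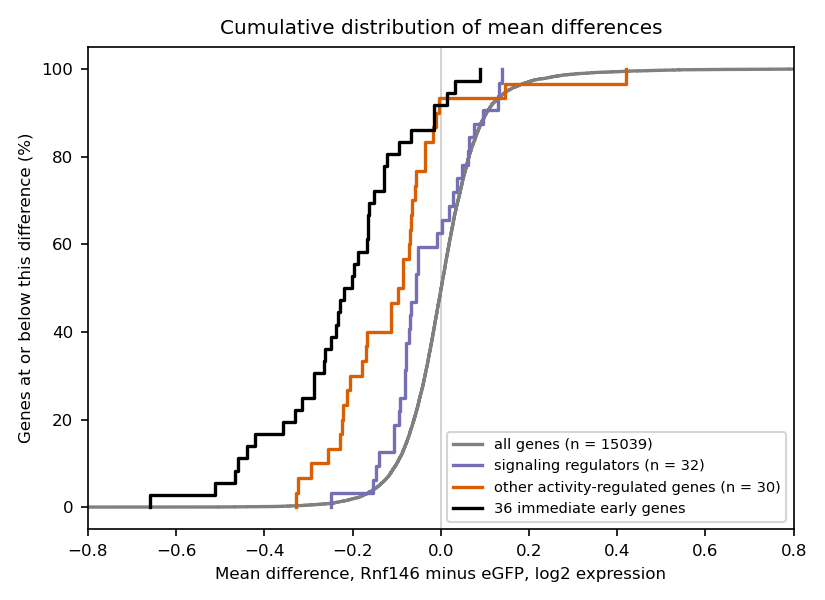
Share of genes (y axis, %) at or below each mean difference (x axis, Rnf146 minus eGFP, log2 expression) for all 15039 genes, 32 signaling regulators, 30 other activity-regulated genes and the 36 IEGs. The curves cross the middle at medians of 0.0009, -0.06, -0.09 and -0.21.

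Lists of glucocorticoid-induced genes and of heat shock genes were compared as well, and their relation to handling was not tested. Rasd1, called higher, was counted with the other activity-regulated genes and not here. In the list of glucocorticoid-induced genes, 0 of 9 were called, and the median was -0.07, with the lowest pair median (-0.27) in pair 4 and the highest (0.06) in pair 3. Zbtb16 and Cdkn1a had its largest differences, -0.28 ± 0.15 and -0.23 ± 0.19 (SD, n = 4 pairs; adjusted p = 0.116 and 0.24 from limma). Of the 8 heat shock genes, 0 were called, with a median of -0.02, and pairs 1 and 2 were below 0 and pairs 3 and 4 above 0. Hspa1b, an inducible HSP70 gene whose reads are hard to separate from those of its near-identical copy Hspa1a, differed by -0.49, -0.41, 0.11 and 0.09, and Dnajb1 by -0.05, -0.34, -0.08 and -0.12. At an unadjusted p under 0.05 from limma, 3 of the 9 glucocorticoid-induced genes were lower and 1 was higher, and 1 of the 8 heat shock genes was lower and 0 were higher. Of all genes, 5.98% were lower and 6.45% higher at this p.

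Marker lists of cell types and neighbouring regions also differed between the groups, and in bulk tissue fewer cells of a type and less RNA per cell cannot be told apart. Markers of cortical excitatory neurons, the cells in which many IEGs are most strongly induced, had a median of -0.21, with 9 of 10 below 0, 6 lower in all 4 pairs and 2 called lower, Neurod2 (-0.30, adjusted p = 0.0688 from limma) and Slc17a7 (-0.30, adjusted p = 0.0922 from limma). Of all genes, 49.4% were below 0, 10.2% were lower in all 4 pairs and 0.432% were called lower. Camk2a stood in the cortical excitatory list and in that of the regulators. The mean level of the cortical excitatory list was 12.19 to 12.35 in eGFP libraries and 11.99 to 12.14 in Rnf146 libraries. As the values were centred within pairs, the eGFP and Rnf146 ranges of any list mirror each other and are not independent. Septal markers were higher in all 4 pairs for 6 of the 7 measured genes of 10 (10.4% of all genes), and 6 were called higher (0.818% of all genes). Their mean level was 9.287 to 9.473 in eGFP and 9.735 to 9.921 in Rnf146 libraries. Zic1, a factor gene of the septum, was higher by 0.99 ± 0.37 (SD, n = 4 pairs; adjusted p = 0.0161 from limma). Of the 6 genes of the interneuron list, 3 were called higher (0.818% of all genes), the GABA synthesis and transport genes Gad1, Gad2 and Slc32a1. Pvalb, Sst and Vip had mean differences below 0. Its mean level was 11.22 to 11.3 in eGFP and 11.42 to 11.5 in Rnf146 libraries.

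The striatal and oligodendrocyte lists had 0 called genes and varied strongly by pair. At an unadjusted p under 0.05 from limma, 11 of 13 and 9 of 9 were higher, against 6.45% of all genes. Without the block, 6 and 9 were called higher, against 11.0% of all genes. Striatal medians were -0.11, 1.33, 0.62 and 0.28 in pairs 1 to 4 over 13 genes, with mean levels of 10.11 to 10.79 in eGFP and 10.68 to 11.36 in Rnf146 libraries. Oligodendrocyte medians were -0.10, 0.51, 0.93 and 0.55 over 9 genes, with mean levels of 11.74 to 12.26 and 12.12 to 12.64. In pair 1, both medians were below 0, and so was the IEG median, at -0.21. Pair 2 had the highest striatal median and the lowest IEG median, whereas pair 3 had the next highest striatal median and the IEG median nearest to 0. The cortical excitatory medians were -0.32, -0.37, -0.04 and -0.19 in pairs 1 to 4. Their order was that of the IEG medians: lowest in pair 2, then pairs 1, 4 and 3. Medians of astrocyte (-0.0638, -0.0963, 0.0065 and -0.03), endothelial and mural (-0.0571, -0.0642, 0.0522 and 0.0145) and ependymal markers (0.258, 0.247, 0.4818 and 0.3398) had this order too. The remaining marker lists did not, and the order over 4 pairs was not tested.

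Of the 7 microglial markers, 7 had a mean difference below 0 (49.4% of all genes). At an unadjusted p under 0.05, 3 were lower (5.98% of all genes), and 0 were called (limma). Their mean levels were 10.28 to 10.38 in eGFP and 10.1 to 10.2 in Rnf146 libraries. Medians of the astrocyte, endothelial and mural, and blood lists were between -0.01 and 0.01, with 0 genes called among 7, 8 and 5 and 0 at an unadjusted p under 0.05 (limma). The 2 measured ependymal markers of 6, Foxj1 and Rarres2, were called higher, at 0.32 and 0.35, against 0.818% of all genes. No marker was at 0: the lowest mean value of a marker was 8.302, and a count of 0 reads as 7.7 on the fitted curve. With the mean of the striatal and septal markers as a covariate beside the block, the IEG median was -0.06 and 0 IEGs were called, and with that of the cortical excitatory markers it was -0.04 and 0 were called. Fos, Fosb and Junb stood at -0.25, -0.28 and -0.17 with the first covariate and at -0.15, -0.44 and -0.29 with the second. Of the 36 IEGs, 29 and 21 had differences below 0 in these fits. Both fits leave 2 residual degrees of freedom and called only Rnf146 among all genes, and the part of these markers in the IEG differences was not tested further.

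**Figure D5:**
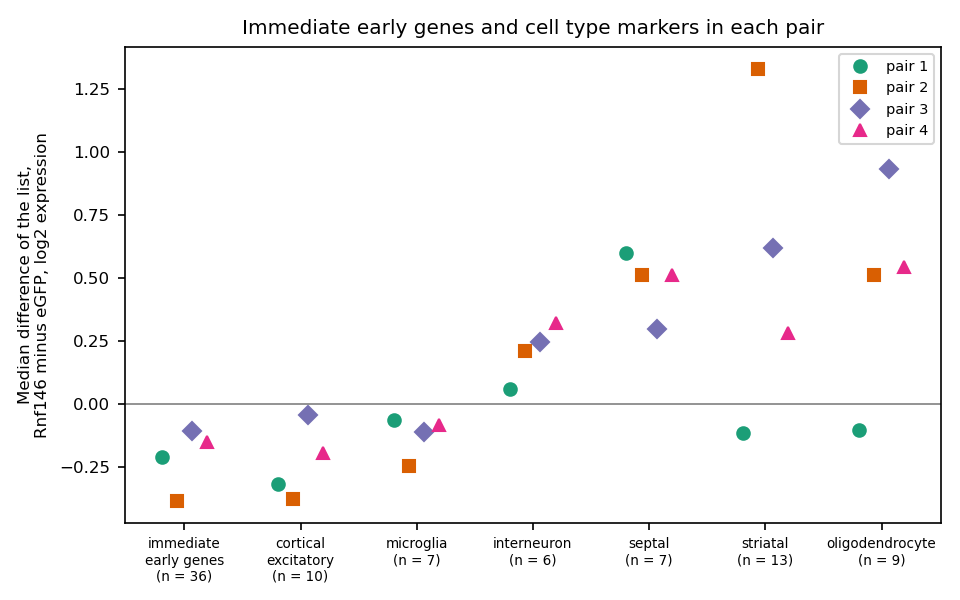
Median difference of each gene list (y axis, Rnf146 minus eGFP, log2 expression) in pairs 1 to 4 (symbols) for the 36 IEGs and 6 lists of cell type markers (x axis, number of measured genes in parentheses). The IEG and cortical excitatory medians lie below 0 in all 4 pairs, from -0.38 to -0.11 and from -0.37 to -0.04, while the striatal medians run from -0.11 to 1.33. Sizes are not directly comparable between lists, because the scale compresses weakly expressed genes more. Mean levels in eGFP libraries were 10.17 to 10.31 for the IEGs and 12.19 to 12.35 for the cortical excitatory markers.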

How the data were processed

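RNA was sequenced from the PFC in 4 eGFP and 4 Rnf146 libraries (TruSeq stranded mRNA). Per the study's methods and the submitters' processing notes, the authors trimmed reads with cutadapt and quantified them with Salmon 1.9.0 against GENCODE transcripts (GRCm39). The notes also name DESeq2, whose role is not given in the sources used here. The deposited table, named as normalized counts, holds log2 values of 15039 genes that the authors variance-stabilized and centred within same-numbered pairs: the sums of the 2 values of a pair differ between pairs by at most 1.4e-13. The stabilization was read from the values. Depth is unknown, so no counting interval is given, and of the study's own gene lists only the mean counts of 294 genes were read, for the curve below.

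Groups and pair numbers came from the sample labels. Pairing rests on the label numbers and on this centring, which fixes the correlation of same-numbered libraries at -1; what the pairs shared (cage, day) is not given in the sources used here. Values were analysed as deposited with limma 3.58.1 in R 4.3.3 (lmFit, eBayes with trend, two-sided), with the replicate number as a block, 3 residual degrees of freedom and Benjamini-Hochberg adjustment over all genes. Genes were called at an adjusted p of 0.1, the study's threshold. The step was tested on simulated data. A curve from values to normalized counts was fitted to the mean counts of the 294 genes (median absolute residual 0.00583, maximum 0.539), and percent changes on the count scale come from it. Alternatives were no block, other scalings, weights, filters and thresholds, marker covariates, the count scale and leaving out each pair.

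The members and all gene lists were chosen with earlier results of these data known, so counts over a list carry no p. Named genes followed a rule. Library values are given for called members and the member of each role group with the largest mean difference in the deposited values. Pair differences are given for the 3 largest of each group, for members with 1 sign in all 4 pairs and for Fos, Fosb, Junb, Egr1, Egr2, Arc, Nr4a1, Npas4, Dusp1 and Nptx2, and the 2 largest of each further activity or stress list are named. Promoter letters are from RefSeq (GRCm38.p6) and gene positions from GENCODE (GRCm39). Genes without a promoter entry were left out of the motif counts.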

Additional observations from a re-analysis of the deposited data

Results flagged for a closer look

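In 4 values, a pair lying far from the other 3 is flagged by Dixon's test at its 95% critical value, and chance flags about 1 in 20 groups. Of 43 genes and list medians tested, 3 were flagged, each for pair 2. Dusp4 differed by -0.1208 in pair 2 and by 0.05 to 0.07 in the other 3 pairs (Q = 0.927). The median of the AP-1 genes was -0.4955 in pair 2, where the other 3 pairs had -0.27 to -0.25 (Q = 0.916). The median of the EGR genes was -0.6427 in pair 2, where the other 3 pairs had -0.20 to -0.15 (Q = 0.889).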

How the results depend on the processing

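The replicate block decided most calls: with no replicate block, 3226 genes instead of 188 and 24 IEGs instead of 3 were called, and the blocked fit is the main one because the centring leaves 4 independent differences. Array weights called 355 genes and 6 IEGs, the added ones being Nr4a1, Npas4 and Dusp1, and an adjusted p of 0.05 left 80 genes and 1 IEG, Fosb. Leaving out 1 pair gave 14 to 421 genes called, 0 to 5 IEGs called lower, an IEG median of -0.24 to -0.15 and a regulator median of -0.0641 to -0.0267. The lowest counts were 14 genes and 0 IEGs without pair 4, and 42 genes and 0 IEGs without pair 2. On the count scale, the median was -0.35 for the IEGs and -0.20 for the other activity-regulated genes. Median centring, quantile normalization, removal of the lowest 25% of genes, no variance trend and robust variances turned the direction of none of the IEGs tested and called 3 IEGs each, except median centring with 4. The removal left 31 of the 36 to test, without Ier2, Ier3, Dusp5, Klf2 and Klf4. The striatal and septal covariate left 1 gene called, 0 IEGs and an IEG median of -0.0628, and it turned Egr2 to 0.0288, Egr4 to 0.0606, Nr4a3 to 0.14, Ier3 to 0.0142, Dusp5 to 0.0812 and Scg2 to -0.006. The cortical excitatory covariate left 1 gene called, 0 IEGs, an IEG median of -0.0426 and a regulator median of -0.0087. It turned Egr1 to 0.16, Egr3 to 0.12, Arc to 0.18, Ier2 to 0.11, Ier3 to 0.0419, Ier5 to 0.32, Dusp5 to 0.012, Nptx2 to 0.0059, Gadd45b to 0.10, Trib1 to 0.0348, Pcsk1 to 0.0387 and Nrn1 to 0.26. Each turned value had an adjusted p above 0.9 (limma). Gadd45g turned to 0.0158 with array weights. With 1 pair left out, 4 genes near 0 turned: Gadd45g ran from -0.0912 to 0.0545 (above 0 without pair 1 or 3), Ier3 from -0.0283 to 0.0015 (above 0 without pair 2), and Dusp4 from -0.004 to 0.0588 and Scg2 from -0.0116 to 0.0787 (below 0 without pair 3). The cause of these shifts was not tested. Unknown depth, 4 pairs and the compressed scale of low values limit what can be detected.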
